A study of Drosophila melanogaster with 2 samples.

Results

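The nuclear respiratory chain genes of Drosophila melanogaster were taken as the protein-coding genes on the chromosome arms whose symbol begins with ND-, UQCR-, COX followed by a number, or ATPsyn. Of 13968 protein-coding genes, 80 met this rule. They comprise 40 genes of complex I, 9 of complex III, 16 of complex IV and 15 of complex V. Among them are 21 genes whose symbols end in L, L1 or L2, with ND-MNLL not counted. A gene was called bound if a peak of the conservative list had its summit within 500 bp of one of the gene's transcript starts.

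The respiratory chain passes electrons from NADH through complex I to ubiquinone, through complex III to cytochrome c and through complex IV to oxygen. Protons pumped on the way drive complex V, the ATP synthase. A few core subunits are encoded by the mitochondrial genome and the others by nuclear genes, whose products are imported into the organelle. Worniu, the factor that was precipitated, is a zinc finger protein of the Snail family. In the fly it is known from neuroblasts, the stem cells that give rise to the nervous system.

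The data are ChIP-seq peak lists from whole embryos aged 0 to 18 h of the strain wor-GFP, a transgenic line with an insertion that targets wor and yields a fusion of wor with eGFP. An antibody against GFP was used, and chromatin was sheared by sonication with a size range of 200 to 800 bp. Both biological replicates were of this genotype and age, and they form 1 group with no second condition. No control library was analysed here. Whole embryos hold many tissues, so a peak present in few cells and a weaker peak in many cells cannot be told apart. The conservative list, made by the authors from both replicates with a filter on the irreproducible discovery rate (IDR), held 3064 peaks, of which 3045 lay on the arms. Signal is a value that the authors gave to each peak. It has no common scale across lists, so it was ranked within 1 list only. Sequencing depth is unknown. Intervals below are 95% Wilson intervals over genes, which cover counting error only.

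Each of the 7 bound members had its summit within 500 bp of the start of a neighbouring gene on the opposite strand. Sequences from 5 of their peaks are printed here. Some are at the summit, and others were chosen because they hold a motif. The 30 bases around the summits of ATPsynE and COX5A, not printed, held no match. The printed sequences are from the RefSeq Release 6 genome (dm6), written 5′ to 3′ on the strand of the member, with capitals marking a match to a searched motif. ND-SGDH, a membrane-arm subunit of complex I, had its summit at the centre of chr3L:12138623-12138723 (minus strand), and the capitals mark TTATATAA, 7 bp from the summit. ND-ASHI, another membrane-arm subunit, had its summit at the centre of chrX:6679342-6679442 (minus strand), with no match to any of the 10 motifs. ND-24, an iron-sulfur subunit of the part of complex I that oxidises NADH, had its summit within chrX:17632180-17632246 (plus strand), in an intron and with no match. At ND-42, a complex I accessory subunit, chr3R:22027460-22027489 (plus strand) begins at the summit and holds CAGCTG, and chr3R:22027554-22027583 lies between the summit and the start of ND-42 and holds TTATATAA. At ATPsynE, which encodes subunit e of the membrane part of the ATP synthase, chr3R:14327039-14327068 (plus strand) holds TATCGATA, the DNA replication-related element (DRE), 81 bp from the summit.
ND-SGDH summit: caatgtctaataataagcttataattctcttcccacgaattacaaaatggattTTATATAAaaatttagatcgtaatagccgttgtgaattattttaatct
ND-ASHI summit: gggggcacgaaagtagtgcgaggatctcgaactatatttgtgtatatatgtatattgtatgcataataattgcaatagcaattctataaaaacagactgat
ND-24 summit: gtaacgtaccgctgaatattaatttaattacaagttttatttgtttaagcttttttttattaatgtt
ND-42 summit E-box: agttaaacacccCAGCTGtgctgtgtagtg
ND-42 upstream: ttttgtaagtgTTATATAAagtttttaaaa
ATPsynE DRE: accaatacaacTATCGATAgccgcctgtca

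Of the 80 members, 7 were bound, a share of 8.75% (interval 4.30 to 16.98). Of all protein-coding genes 1479, or 10.6%, were bound by the same rule, so the share of the members lay close to the background and is no result about these genes. The 7 were ND-ASHI, ND-MWFE, ND-24, ND-42 and ND-SGDH of complex I, COX5A of complex IV and ATPsynE of complex V. Complex I thus had 5 of 40 members bound (12.5%, interval 5.46 to 26.1), complex IV 1 of 16 (6.25%, interval 1.11 to 28.3) and complex V 1 of 15 (6.67%, interval 1.19 to 29.8). Complex III had 0 of 9, a count that allows at most 33.3%. All 4 intervals or limits include the background.

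**Figure D1:**
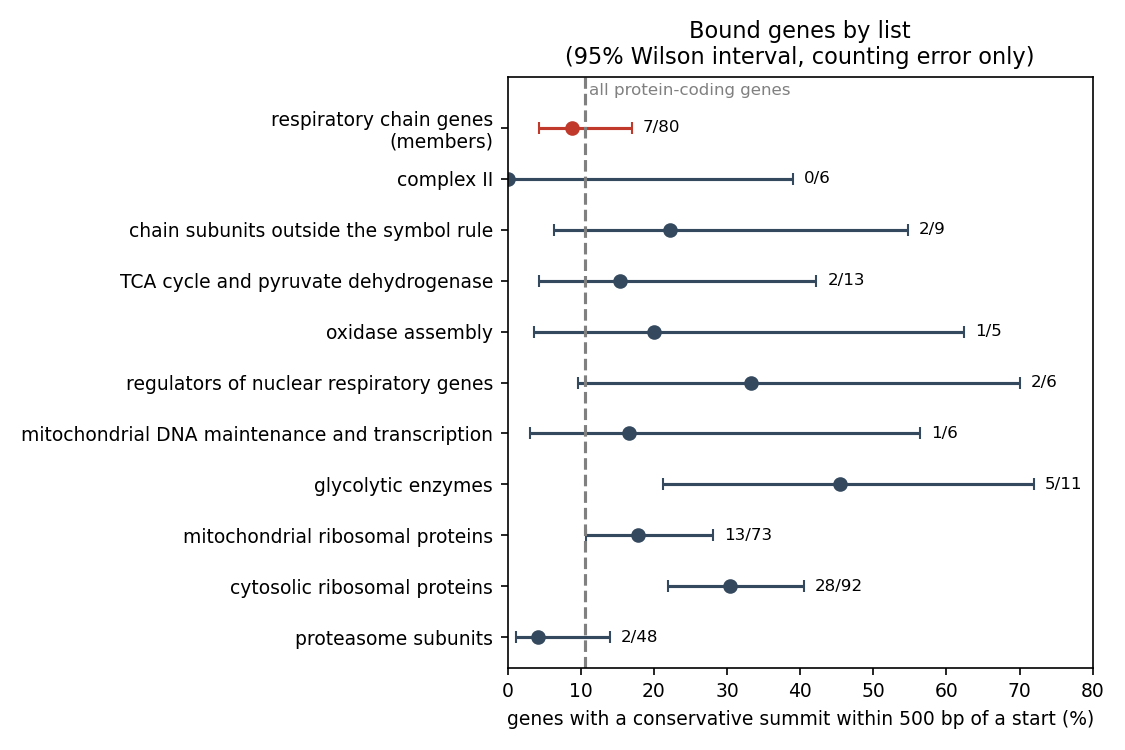
Share of genes bound, in percent, for the 80 respiratory chain genes (red) and 10 other gene lists (dark), with 95% Wilson intervals as bars and the number bound of the number in the list beside each. The dashed line is the 10.6% of all protein-coding genes, which the interval of the respiratory chain genes spans. The intervals of glycolytic enzymes and of mitochondrial and cytosolic ribosomal proteins lie above it. That of mitochondrial ribosomal proteins does so only narrowly, with a lower end of 10.7%.

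The membrane arm of complex I held both the highest and the lowest signals among the bound members. ND-ASHI (FBgn0029888), known as a membrane-arm subunit from the bovine enzyme, had a peak at chrX:6679319-6679447 with its summit 274 bp upstream of the nearest start, in an intron of Fum1, which encodes mitochondrial fumarase. Its signal was 219.4 in the conservative list, 112.7 in the ranked list of replicate 1 and 110.3 in that of replicate 2. It ranked 563 of 3045 and lay in the thresholded lists of both replicates. ND-MWFE (FBgn0085468), a small subunit at the base of the membrane arm, had a peak at chr2R:13158319-13158682, 165 bp upstream of its start and in an intron of TppII, which encodes tripeptidyl peptidase II. Its signal was 212.7, with 117.6 in replicate 1 and 88.5 in replicate 2, and its rank was 588. ND-SGDH (FBgn0011455) had the lowest signal of the 7, with a peak at chr3L:12138491-12138854, 89 bp upstream of its start and between genes. Its signal was 89.3, with 51.6 in replicate 1 and 39.4 in replicate 2, its rank was 2082, and it was absent from the thresholded list of replicate 2.

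For the NADH-oxidising part of complex I, 3 members were read here, ND-24, ND-51 and ND-75, and 1 of them was bound. Accessory subunits were not assigned to this part and are listed further below. ND-24 (FBgn0030853) had a peak at chrX:17632014-17632377 with its summit 107 bp downstream of its nearest start, a signal of 189.2, 119.4 in replicate 1 and 71.5 in replicate 2, and rank 717. It lay in both thresholded lists. ND-51, the subunit that carries the flavin, was the unbound member closest to the threshold on reproducibility. Its peak had a signal of 85.2 in the ranked list of both replicates and a −log10 IDR of 1.45, whereas the conservative list holds only peaks at 2 or more. Replicate 1 had a signal of 55.9 there and replicate 2 had no ranked peak. ND-75, the largest iron-sulfur subunit, had 30.1 in the ranked list of both replicates, 23.9 in replicate 2 and no ranked peak in replicate 1. Of the 4 members that pass electrons on to ubiquinone, ND-49, ND-30, ND-20 and ND-23, 0 were bound. ND-23 had 48.1 in the ranked list of both, 22.7 in replicate 1 and 26.2 in replicate 2, ND-30 had 24.8 in the list of both alone, and ND-49 and ND-20 had no ranked peak.

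ND-42, COX5A and ATPsynE had intermediate or low signals. ND-42 (FBgn0019957), which encodes an accessory subunit on the matrix side, had a peak at chr3R:22027278-22027641 with its summit 249 bp upstream of its start and in a UTR exon of Cchl, which encodes cytochrome c heme lyase. Its signal was 127.6, with 83.9 in replicate 1 and 44.3 in replicate 2, and its rank was 1321. ATPsynE (FBgn0038224) had a peak at chr3R:14326790-14327153 with its summit 25 bp downstream of its nearest start, a signal of 120.9, 55.0 in replicate 1 and 58.7 in replicate 2, and rank 1415. COX5A (FBgn0019624), a nuclear subunit of cytochrome c oxidase, had a peak at chr3R:11819372-11819735 with its summit 45 bp upstream of the nearer of its 2 starts. The other start lay 240 bp upstream of the nearer one, so the summit was downstream of it, in a UTR exon of COX5A. The signal of COX5A was 94.4, with 46.8 in replicate 1 and 40.2 in replicate 2, and its rank was 1960. ATPsynE lay in both thresholded lists, whereas ND-42 and COX5A lay only in that of replicate 1.

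All 7 bound members thus had a ranked peak in each replicate and lay in the thresholded list of replicate 1, and 4 of 7 lay in that of replicate 2. Their median signal was 127.6, against 148.8 over all bound genes, and 5 of 7 were at or above the median of the list, 115.1, against 68.0% of all bound genes. Their median distance from summit to nearest start was 107 bp, against 165 bp over all bound genes. The furthest inside the limit were ND-ASHI at 274 bp and ND-42 at 249 bp. The closest outside it was ATPsynCF6, which encodes coupling factor 6 of the peripheral stalk, at 997 bp, followed by UQCR-6.4L at 1029 bp and ND-39 at 1597 bp. No member lay near the limit of 500 bp, and 72 of 80 had no conservative summit within 1000 bp.

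**Figure D2:**
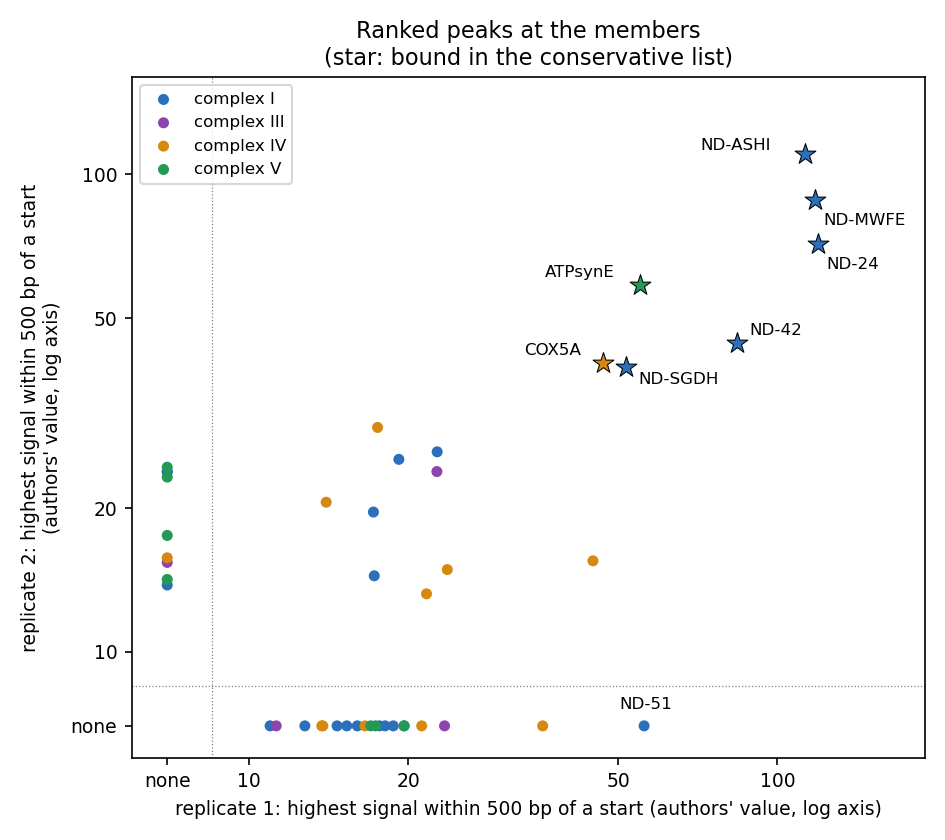
Highest ranked-peak signal within 500 bp of a start in replicate 1 (x) against replicate 2 (y), both the authors' values on log axes. Each point is a member coloured by complex, and stars are the 7 bound members. A member lacking a ranked peak in only 1 replicate is placed at "none" for that replicate. Members with no ranked peak in either replicate list are not drawn. The bound members sit between 46.8 and 119.4 in replicate 1 and between 39.4 and 110.3 in replicate 2, and ND-51 has 55.9 in replicate 1 with no ranked peak in replicate 2.

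The longer ranked lists, which hold peaks that did not pass the IDR filter, were read for the 73 unbound members. The list of both replicates held 62469 peaks on the arms and had a peak within 500 bp of a start for 36 of 80 members (45.0%, interval 34.6 to 55.9), against 47.9% of all protein-coding genes. The ranked list of replicate 1 gave 37 members (46.25%) against 47.6%, and that of replicate 2 gave 26 (32.5%) against 40.3%. Among the unbound members, 29 had such a peak in the list of both, with signals from 9.42 to 85.2 and a median of 34.1. The median over every peak of that list was 26.3. The values are not alike, since those of members are the highest per gene near a start. After ND-51, the highest were the oxidase subunits COX8, with 59.9 in the list of both, 35.9 in replicate 1 and no ranked peak in replicate 2, and COX5B, with 57.5 in the list of both, 44.8 in replicate 1 and 15.5 in replicate 2. A ranked peak in each replicate was found at 10 unbound members: ND-13A, ND-23, ND-B14.5AL, ND-B17, UQCR-6.4L, COX5B, COX6AL, COX7A, COX7AL2 and COX7C. Their replicate signals were all below those of the 7 bound members.

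In the membrane and matrix arms of complex I, the unbound accessory members with a ranked peak in any list were ND-13A, ND-15, ND-18, ND-19, ND-39, ND-ACP, ND-B8, ND-B14.5A, ND-B14.5B, ND-B15, ND-B17, ND-B17.2, ND-B18, ND-B22 and ND-MNLL. Those with none were ND-13B, ND-AGGG, ND-B12, ND-B14, ND-B14.7, ND-B16.6, ND-MLRQ and ND-PDSW. ND-MLRQ was the furthest member from a conservative summit, at 460417 bp.

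In complex III, which takes electrons from ubiquinol to cytochrome c, no member was bound and 4 of 9 (44.4%) had a ranked peak in the list of both, close to the 47.9% of all protein-coding genes. Of the core proteins, UQCR-C1 had a signal of 9.42 in that list, 11.3 in replicate 1 and none in replicate 2, and UQCR-C2 had no ranked peak. UQCR-14 had 25.9 in the list of both, 15.4 in replicate 2 and none in replicate 1, and UQCR-11, UQCR-6.4 and UQCR-Q had no ranked peak. UQCR-11L had the highest signal of the complex, 48.1, with 23.4 in replicate 1 and none in replicate 2, followed by UQCR-6.4L with 27.3, 22.7 in replicate 1 and 23.9 in replicate 2.

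In complex IV, 6 of the 8 members under their own symbols had a ranked peak in the list of both, as did 2 of the 8 with L names. The whole complex, at 8 of 16 (50%), was close to the 47.9% of all protein-coding genes. Besides COX5A, COX8 and COX5B these were COX7C with 46.3, COX7B with 40.9 and COX7A with 39.3. COX6B had a ranked peak of 15.7 in replicate 2 alone and COX4 had none. In complex V, the catalytic and rotary head was represented by ATPsynbeta, ATPsyngamma and ATPsyndelta, of which 0 were bound. ATPsynbeta, the catalytic subunit, had 36.6 in the list of both and 19.7 in replicate 1. ATPsyngamma, the rotating shaft, had 16.99 in replicate 1 alone, and ATPsyndelta had no ranked peak. ATPsynbeta and ND-49 of complex I lie on chromosome 4, which held only 4 conservative peaks. Of the 80 protein-coding genes on that chromosome, 2 (2.5%) were bound. Of the 8 members of the stalks and membrane part, ATPsynE was bound, ATPsynO, in the peripheral stalk, had 33.8, ATPsynCF6 had 23.6, and ATPsynB, ATPsynC and ATPsynG each had a ranked peak in 1 replicate alone. ATPsynD and ATPsynF had none.

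The fly genome carries copies of many of these genes that are named by the parent gene with L, L1 or L2 added. Such copies are known in Drosophila as a class with expression biased to the testis. Of the 17 members that are such copies of another member, 0 were bound, a count that allows at most 17.6%, and 6 (35.3%) had a ranked peak in the list of both. Those with such a peak were ND-20L, ND-B14.5AL, UQCR-11L, UQCR-6.4L, COX7AL2 and ATPsynGL, and COX4L and COX7AL had one in replicate 1 alone. The other 9, ND-24L, ND-49L, ND-51L1, ND-51L2, UQCR-14L, COX5BL, COX7CL, ATPsynCF6L and ATPsynbetaL, had no ranked peak in any list. Of their 15 parent genes 1 was bound, ND-24, and 8 (53.3%) had a ranked peak. The share over all protein-coding genes, 47.9%, lay between both. A start of another gene on the opposite strand within 1000 bp upstream was present at 2 of the 17 copies and 10 of the 15 parents, and its part in these shares was not tested. The 4 further members with such symbols, ATPsynepsilonL, COX6AL, COX6AL2 and COX6CL, included 0 bound. At these counts a share at the background of 10.6% and a share of 0 among the copies are not distinguishable.

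The rule does not ask for a shared promoter, but it lets a summit call both genes of a facing pair. The 7 peaks shared 1 arrangement. Each lay where the member's start faces the start of another protein-coding gene on the opposite strand, a head-to-head or divergent promoter, and all 7 summits were within 500 bp of the start of that neighbour, against 57.3% of all bound genes with a second gene's start in that distance. The summit lay between both starts at ND-ASHI and Fum1 (522 bp apart), ND-MWFE and TppII (221 bp apart), COX5A and glo (179 bp apart) and ND-SGDH and RhoGAP68F (284 bp apart). For COX5A this holds for the start nearer to the summit, which lay downstream of its other start and in its own UTR exon. At ND-24 and corolla (42 bp apart) and at ATPsynE and Afti (258 bp apart) the summit lay downstream of the member's start, and at ND-42 and Cchl (229 bp apart) downstream of that of Cchl. The member's start was the nearer at ND-24, ATPsynE, COX5A and ND-SGDH, and the neighbour's at ND-ASHI, ND-MWFE and ND-42, where the summit was 248 bp from Fum1, 56 bp from TppII and 20 bp from Cchl. The neighbours have varied roles: Fum1 and Cchl act in mitochondria, corolla is a protein of the synaptonemal complex, and glo an RNA-binding protein. Which gene of a pair a peak belongs to was not tested.

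**Figure D3:**
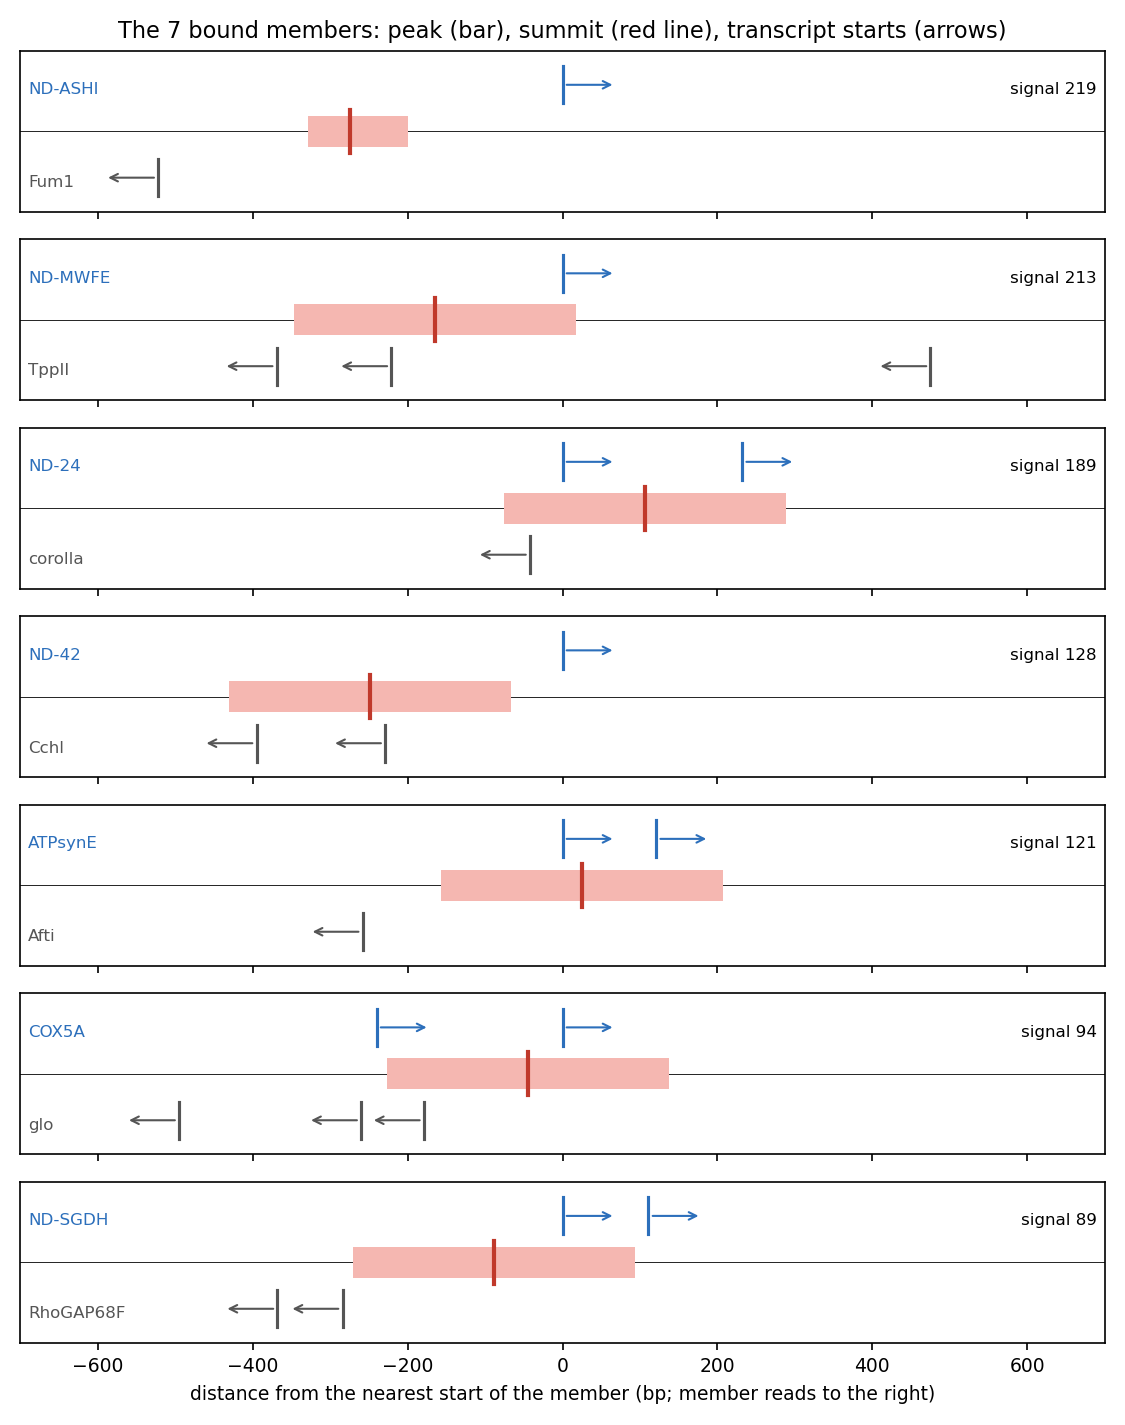
The 7 bound members, each in a panel by falling signal, with position in bp relative to the member's start nearest to the summit and the member reading to the right; bars are peaks, red lines summits, and arrows the annotated starts of the member (blue, above) and of the neighbouring gene (grey, below). The summit lies from 274 bp upstream to 107 bp downstream of the member's nearest start, and each panel holds a neighbour's start that reads to the left.

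Genes were then split by whether such a divergent partner had its start within 1000 bp upstream, a split chosen after the 7 peaks had been seen. Since a summit can call both genes of a pair, such genes are not independent, which the intervals do not cover. How far this raised the shares with a partner was not tested. Of the members, 42 (52.5%) had a partner, against 36.2% of all protein-coding genes. Of these 42, 7 were bound (16.7%, interval 8.32 to 30.6), against 18.7% (interval 17.7 to 19.8) of the 5052 genes with a partner in the genome. Of the 38 members without a partner 0 were bound, a count that allows at most 7.89%, against 5.99% (interval 5.52 to 6.50) of the 8916 genes without one. Within both classes the members lay close to the background or within its limit. The ranked list of both replicates gave 59.5% of the members with a partner and 28.9% of those without, against 57.0% and 42.7% of all genes. Of all 1479 bound genes 63.9% had a partner. So did 13 of 13 bound mitochondrial ribosomal protein genes, 21 of 28 bound cytosolic ones and 3 of 5 bound glycolytic genes. The count was 2 of 2 for each of the bound citric acid cycle, regulator and proteasome genes. It was 1 of 2 for chain subunits outside the symbol rule, and 0 of 1 each for oxidase assembly and mitochondrial DNA. Among the unbound members were pairs with other mitochondrial genes, such as ND-B16.6 with kdn, which encodes citrate synthase, and ATPsynD with mRpL55 of the mitochondrial ribosome, neither with a ranked peak. No member had another member as its partner.

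**Figure D4:**
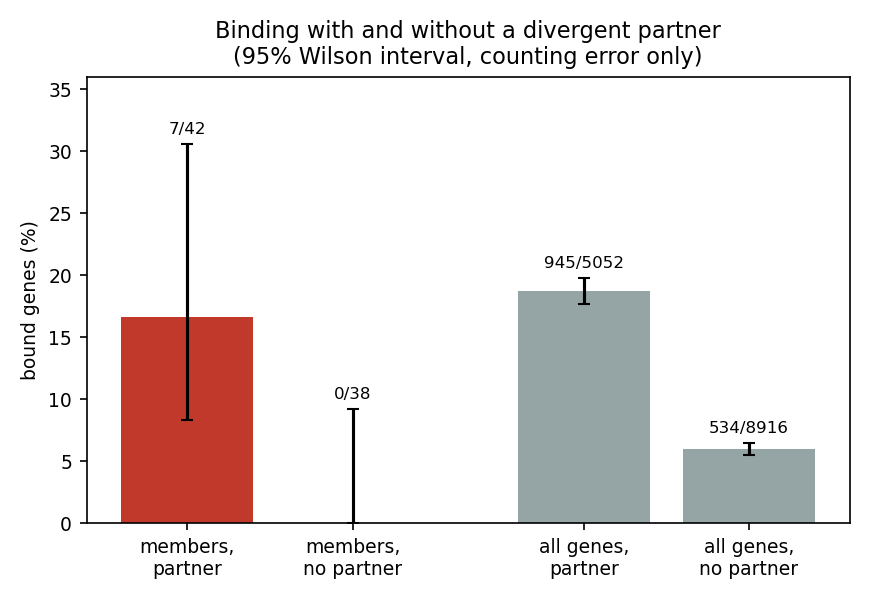
Percentage of genes bound among the 80 members (red) and all protein-coding genes (grey), with and without an opposite-strand start within 1000 bp upstream; error bars are 95% Wilson intervals over genes and the counts stand above them. Members with a partner (16.7%) sit beside all genes with a partner (18.7%), and 0 of 38 members without one were bound, against 5.99% of all such genes.

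Members differed from other genes in length and in number of annotated starts, and the rule counts summits near any start. Their median length was 1091.5 bp, against 2164.5 bp for all protein-coding genes. Of the 80 members 46 had 1 start, 29 had 2, 5 had 3 and none had 4 or more. Of the 13968 protein-coding genes 10269 had 1 start, 2566 had 2, 693 had 3 and 440 had 4 or more. Members thus had 2 starts more often than all genes did. With 1 start 2 of 46 members were bound, against 7.82% of all such genes, with 2 starts 4 of 29 against 15.5%, and with 3 starts 1 of 5 against 19.5%. Of all genes with 4 or more starts 32.5% were bound. The median distance from a start to the nearest conservative summit was 7694.5 bp over the members and 13283 bp over all genes.

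The count of bound members was set beside the background under each other rule. The second list made from both replicates gave 8 against 10.9%, with ND-51 added. The thresholded list of replicate 1 also gave 8 with ND-51, against 9.26%, and that of replicate 2 gave 4, ATPsynE, ND-24, ND-ASHI and ND-MWFE, against 7.81%. Peaks at or above the median signal gave 5 against 7.2%, without COX5A and ND-SGDH, and ranked peaks with an IDR of at most 0.05 gave 8 against 12.2%. A limit of 200 bp gave 5 against 6.92%, without ND-42 and ND-ASHI, and one of 1000 bp gave 8 against 12.7%, with ATPsynCF6. Counting any base of a peak gave 7 against 11.5%, starts at the end of the gene model alone gave 7 against 8.98%, and leaving out weaker overlapping peaks gave 7 against 10.5%. When a summit counted only for the gene with the nearest start, 4 members were left, ATPsynE, COX5A, ND-24 and ND-SGDH, against 7.9%.

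The promoters of the members, from 250 bases before to 50 after the 5′ end of the gene model, were searched on both strands for 10 motifs. This is 1 start for each gene, so sites near a further annotated start can lie outside the window. The M1BP-type motif GGTCACACT, named for a zinc finger protein that binds core promoters, was found in 15 of 80 (18.75%), against 6.04% of all protein-coding promoters and 7.91% of those of bound genes. Among the bound members it was present at COX5A and ND-MWFE, at each outside the peak. Within 100 bp of the 7 summits it was found at 0, against 1.19% of the 1180 conservative summits near protein-coding starts. The 15 sites had a median position of 10 bp upstream of the start, and 12 of 15 lay within 100 bp of it, against 85.7% of the 869 sites in all promoters. Such sites, with the motif in capitals, are shown for the bound COX5A, where it is on the opposite strand, and for the unbound COX4, COX5B and COX7B of complex IV and ND-18 of complex I. They lie on the plus strand of dm6 at chr3R:11819313-11819342, chr2L:19958641-19958670, chr2L:6557802-6557831, chr3L:17425476-17425505 and chrX:19492408-19492437, in this order.
COX5A: ttgaagatgcAGTGTGACCgcaattaaatc
COX4: ttcgagatgtGGTCACACTtctctgcatga
COX5B: actttaccgcGGTCACACTgatccatagct
COX7B: acaacacaacGGTCACACTgttcaacacaa
ND-18: ccgctcgcctGGTCACACTggcactggcga

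The other motifs differed from all promoters by fewer percentage points. The Snail-type E-box CAGGTG was in 5 member promoters (6.25%), against 9.31% of all promoters, and of the bound members only that of COX5A held it. The E-box CAGCTG was in 19 (23.75%) against 17.6%, with ND-42 the bound member in this window, the Myc-type E-box CACGTG in 4 (5%) against 4.20%, and the DRE TATCGATA in 9 (11.25%) against 9.36%, with no bound member in this window. The DRE and a CAGCTG of ATPsynE and a CAGCTG of ND-24 lay near the second start of these genes, at 106, 131 and 231 bp downstream of the first, and were not counted here. GAGAGAG was in 1 (1.25%) against 5.86%, and GCGCATGC, letters of the NRF1 type, in 0 against 1.05%. TTATATAA, TTATGTAA and TTACGTAA, core letters of an element described at nuclear respiratory genes of insects, were in 3, 2 and 0 promoters. Any of these was in 5 (6.25%), against 5.18% of all promoters, and ND-SGDH and ND-42 were the bound members that held one. Each motif is a string of letters, and its presence is no evidence of a bound factor.

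Within 50 bp of the 7 summits, CAGGTG was found at 0, against 1.95% of the 1180 conservative summits near protein-coding starts. CAGCTG was found at 1, ND-42, 14 bp from the summit, against 3.47%, and TTATATAA at 1, ND-SGDH, against 2.37%. Within 100 bp the DRE of ATPsynE was added. Further CAGCTG sites lay 124 bp from the summit at ND-24 and 106 bp at ATPsynE. The median GC content of the 301 bases around the summits of bound members was 33.6%, from 30.6% at ND-42 to 45.5% at ND-ASHI, against 35.9% over summits near starts.

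**Figure D5:**
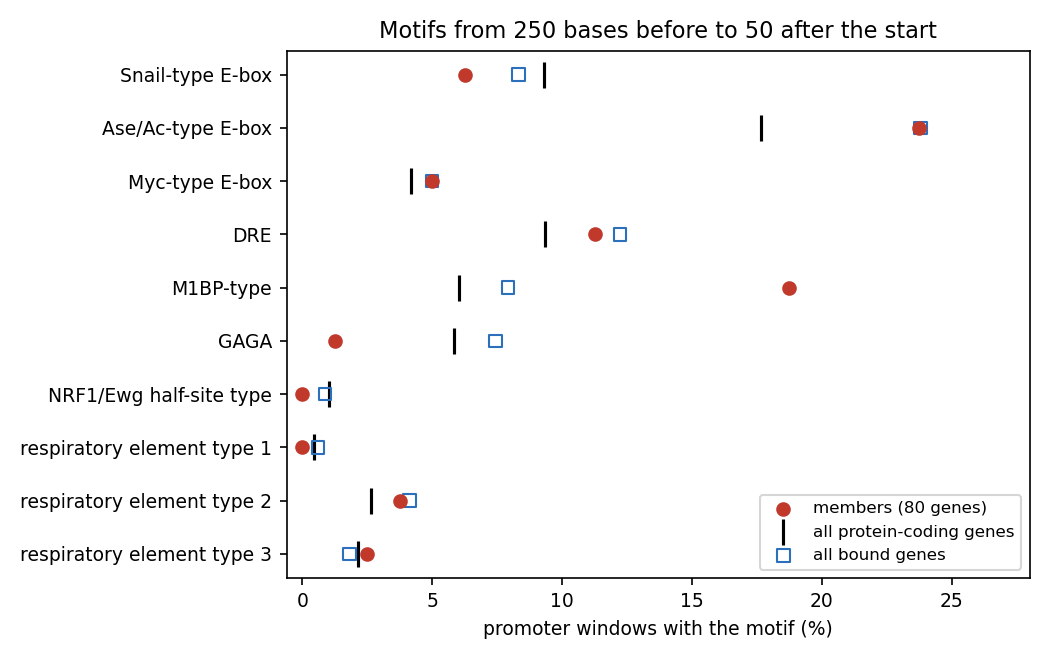
Percentage of promoter windows (250 bases before to 50 after the 5′ end of the gene model) holding each of 10 motifs on either strand, for the 80 members (red dots), all protein-coding genes (black ticks) and all bound genes (open squares). The M1BP-type motif stands at 18.75% in the members against 6.04% in all promoters, and the Snail-type E-box at 6.25% against 9.31%.

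Other genes of energy metabolism and of protein synthesis were read beside the members under the same rule. Of 6 genes of complex II, the link of the citric acid cycle to the chain, 0 were bound. Of 9 chain subunits whose symbols fall outside the rule 2 were bound, Cyt-c-d, a cytochrome c gene, with a signal of 640.0 and rank 57, and levy, an oxidase subunit, with 159.5. Both exceeded the signal of the bound oxidase member COX5A. Of 13 genes of the citric acid cycle and pyruvate dehydrogenase 2 were bound, Idh3g with 308.8 and Fum1, whose peak is that of ND-ASHI. Cox17, a copper chaperone of the oxidase, was the 1 of 5 assembly genes bound, with 153.3, and mtSSB, a mitochondrial single-stranded DNA binding protein, the 1 of 6 for mitochondrial DNA, with 150.9. ERR, a nuclear receptor of metabolic genes, with 224.9, and M1BP, with 126.0, were 2 of 6 regulators bound.

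Glycolytic enzymes, at the other end of glucose breakdown, had 5 of 11 bound (45.5%, interval 21.3 to 72.0), led by Gapdh2 with 587.6, Eno with 417.1 and Hex-A with 242.4. Mitochondrial ribosomal proteins, which make the subunits that the organelle encodes, had 13 of 73 (17.8%, interval 10.7 to 28.1), led by mRpL41 with 1226, mRpS10 with 959.1 and mRpS23 with 921.7. Cytosolic ribosomal proteins had 28 of 92 (30.4%, interval 21.97 to 40.5) with no signal above the 218.7 of RpL32, and proteasome subunits had 2 of 48 (4.17%, interval 1.15 to 13.98). The highest signal of the 80 members, 219.4, was close to that of the cytosolic ribosomal proteins and below those of the leading glycolytic and mitochondrial ribosomal genes. Differences between these lists and the members were not tested.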

How the data were processed

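Peak lists of Wor-eGFP ChIP-seq in 2 biological replicates were analysed. The authors deposited, per replicate and for both together, ranked and IDR-thresholded lists on dm6, per the labels. The signal of each peak and its score, a whole number from the IDR step, are the authors' deposited values, as are the −log10 of the global IDR and the summit position. The sources used here do not give the aligner or the peak caller, and no control was used here. The ranked list of both replicates carries 8 further columns of positions and values per input, which were not used. Depth is unknown, so precision is given as 95% Wilson intervals, with 3 counts of the total as the limit for a count of 0.

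Transcript starts were those of Ensembl release 115 (BDGP6 annotation 54), and sequences came from RefSeq Release 6, with coordinates of the lists checked against its arm lengths. Scripts used Python 3.11.15, pandas 2.3.3, numpy 2.4.6, scipy 1.17.1 and matplotlib 3.10.9, and the distance step was tested on simulated peaks. Replicate values are those of the highest ranked peak within 500 bp of a start. No test was run: with 1 group there is no contrast. The members, gene lists and motifs were chosen with earlier results of these data known. Every bound member was named with its values, every unbound member within its complex, and at most 3 bound genes of each other list besides chain subunits. Other lists, thresholds, distances, start definitions and assignments were tried as alternatives. Twinkle, on the list for mitochondrial DNA, was not matched. Sequences on 2R are not printed.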

Additional observations from a re-analysis of the deposited data

How the results depend on the processing

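The 7 members bound became 4 when each summit counted only for the gene with the nearest start, and from 4 to 8 when 1 replicate was left out. Without replicate 1, ND-42, COX5A and ND-SGDH were lost. Complex I had 5 bound members, 3 to 6 with 1 replicate left out, 3 within 200 bp and 2 with the nearest start only. Complex IV had 1, 0 to 1 with a replicate left out and 0 at or above the median signal, and complex V had 1, and 2 within 1000 bp. Complex III and the copies with L names stayed at 0 under each alternative run for them. The share of all protein-coding genes bound, 10.6%, was 7.81% to 9.26% with a replicate left out, 7.2% at or above the median signal, 12.2% at an IDR of at most 0.05, 6.92% within 200 bp, 12.7% within 1000 bp, 11.5% with any base of a peak, 8.98% from the end of the gene model and 7.9% with the nearest start. The median percentile of signal of the bound members was 56.7 and 41.2 to 50.4 with a replicate left out. The median distance was 107 bp, 104 to 119.5 bp with a replicate left out, 89 bp within 200 bp and 136 bp within 1000 bp. The causes of these shifts, beyond the fewer or more peaks each alternative admits, were not tested. No paired analysis was possible because there is only 1 group.

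The depth of the libraries is unknown, and no control library was analysed, so absence of a peak at a member says only that none was listed. With 80 members, shares are known to within about the width of their intervals, and counts by complex rest on 0 to 5 bound genes. Replicate lists differ in length, so a member missing from the shorter list of replicate 2 is not shown to differ between replicates.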
